A study of Thermothelomyces thermophilus ATCC 42464 with 8 samples.

Results

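The endoplasmic reticulum and Golgi genes of M. thermophila, 199 of 9110 genes counted, were followed in RNA-seq libraries of 4 strains that differ in how they handle d-xylose. Genes were chosen by their description, which is that of the best S. cerevisiae match. The part of the text before the first semicolon had to name COPII, COPI, coatomer, the translocon, the signal recognition particle, signal peptidase, oligosaccharyltransferase, a mannosyltransferase, a disulfide isomerase, a SNARE, the exocyst, transport from ER to Golgi, TRAPP or the Golgi. Texts with peroxisom or sterol were to be left out, but 0 of the matching texts held either word. A description was present for 4237 genes, and the 199 genes shared 154 distinct texts. By role, 8 genes belonged to translocation and signal peptide removal, 30 to glycosylation, 4 to disulfide bond formation and 29 to ER-to-Golgi transport. A further 11 fell under coatomer (4 with coatomer subunit texts, 4 of the SEA complex and 3 F-box proteins), 6 carried a TRAPP text, 24 a SNARE text and 8 an exocyst text, and the other 79 were found by the word Golgi alone. The match was not always to a secretion gene. Among the 199 genes, 3 F-box proteins matched through the word copies, 4 genes belonged to the SEA complex of the vacuole and 5 to cytoplasmic thioredoxin. These 12 genes were kept, and counts without them are given for DF1102 against JG207 only.

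Secreted proteins enter the endoplasmic reticulum (ER) through the signal recognition particle and the Sec61 channel, lose their signal peptide, and receive N-glycans from oligosaccharyltransferase and O-mannose from protein O-mannosyltransferases. Protein disulfide isomerase forms and rearranges their disulfide bonds. COPII vesicles carry cargo from the ER to the Golgi, COPI vesicles (whose coat is called coatomer) return escaped proteins, TRAPP and the exocyst tether vesicles, and SNARE proteins fuse them with the target membrane. In the Golgi the glycans are extended with mannose. Filamentous fungi such as M. thermophila use this route to release large amounts of plant cell wall hydrolases.

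RNA was sequenced from 8 libraries, 2 per strain, of mycelium grown for 24 h in 2% glucose and then moved to 1% d-xylose for 4 h, at 45 °C with shaking at 150 rpm. All strains derive from JG207, which overexpresses the malate transporter gene Aomae and the pyruvate carboxylase gene Aopyc, so these transgenes are shared by every group. DF1102 lacks Mtxyl1, the gene of d-xylose reductase. DF1406 lacks Mtxyl1 and carries Mtxyd1, xylD, xylX and xylA, and DF1501 lacks Mtxyl1 and carries Mtxyd1, xylD, BxxylX and KsaD. These sets of Weimberg pathway genes, which oxidise d-xylose, entered the genome at random sites in several copies, with the constitutive promoters Ptef and PgpdA in front of Mtxyd1 and xylD. With 1 strain per genotype, the effect of a genotype and that of the strain that carries it cannot be told apart. Whether the 2 libraries of each strain came from separate cultures is not said in the sources, so that the p-values rest on a spread that may be only technical. In bulk mycelium, fewer hyphae using a gene and less of its RNA in each hypha cannot be told apart either.

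Library totals lay between 20727346 and 21408353 counts. Mtxyl1 (MYCTH_43671) stood at 1676 and 1773 RPKM (JG207), 412 and 383 (DF1102), 102 and 109 (DF1406) and 252 and 228 (DF1501), so reads remained in the strains labelled as deleted for it. Where in the gene they lie was not analysed here. The spread between libraries of a strain, as the root mean square deviation of log2 CPM over the secretion genes, was 0.0917 in JG207, 0.0729 in DF1102, 0.0795 in DF1406 and 0.114 in DF1501. The libraries of DF1501 thus stood further apart than the others, while each gene was fitted with a spread common to the strains. CPM is a count scaled by library size and the TMM factor, and RPKM is the deposited read count scaled by library size and gene length. Errors of log2 fold changes are standard errors (SE) of the fit. Genes named below are those of the rule in the methods, and the others (the whole complexes described subunit by subunit, and further single genes) were chosen after their values were seen.

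The first comparison, DF1102 against JG207, asks how the secretion genes stood on d-xylose in the strain without Mtxyl1. Of 199 genes, 198 passed the filter on low counts, and the exception was MYCTH_2125560, a Golgi phosphatidylserine decarboxylase by its text. In DF1102, 59 of the 198 genes rose and 54 fell at an edgeR adjusted p of at most 0.05, against 27.8% and 29.5% of all 8335 genes tested. These are 29.8% and 27.3% of the genes, close to the shares over all genes, and the median log2 fold change was 0.07. Few changes were large. With a fold of at least 2 as well, 3 genes rose and 5 fell, against 10.2% and 11.1% of all genes tested. Without the 12 genes matched for another reason, 54 rose and 50 fell, and without the genes matched by Golgi alone, 29 rose and 40 fell. The counts were smaller whichever library was left out, which leaves 1 library in a strain. The median log2 fold change then lay between 0.03 and 0.07. Without DF1102 replicate 2 there were 39 that rose and 35 that fell, and the number that fell was 26 without DF1102 replicate 1 and 35 without JG207 replicate 2.

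The medians of the roles lay on both sides of 0, and their shares of called genes are to be read against the 27.8% that rose and 29.5% that fell of all genes tested. Glycosylation had 19 genes that fell and 5 that rose of 30, or 63.3% and 16.7%, with a median log2 fold change of -0.43. ER-to-Golgi transport had 11 that fell and 5 that rose of 29, or 37.9% and 17.2%, with a median of -0.14. SNARE texts had 10 that rose and 2 that fell of 24, or 41.7% and 8.33% (median 0.24), and the genes matched by Golgi alone had 30 that rose and 14 that fell of 78 tested, or 38.5% and 17.9% (median 0.16). Translocation and disulfide bond formation also had medians below 0, at -0.06 and -0.30, as did the 6 COPI coatomer subunits, at -0.45, and TRAPP and the exocyst had medians above it, at 0.11 and 0.15. These are counts and medians of lists, and no test compared one list with another. Without DF1102 replicate 2, 17 of the genes matched by Golgi alone rose and 8 fell. Without DF1102 replicate 1, 3 genes of ER-to-Golgi transport fell and 2 rose. Between 14 and 17 glycosylation genes fell when any library of either strain was left out.

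**Figure D1:**
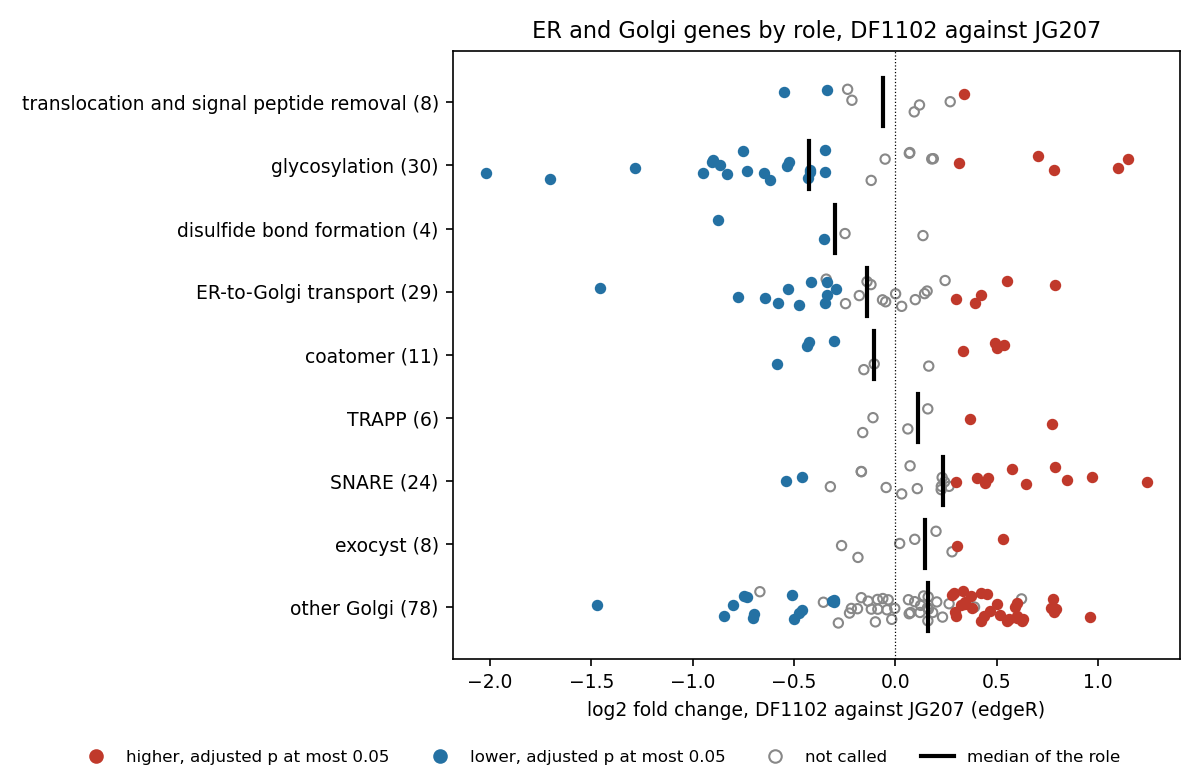
Log2 fold change of the 198 tested ER and Golgi genes in DF1102 against JG207, 1 point per gene, by role, with the number of genes in brackets. Filled points passed an edgeR adjusted p of 0.05 (red higher, blue lower), open points did not, and the black bar is the median of the role. Glycosylation genes lie mostly to the left, with a median of -0.43, and SNARE genes mostly to the right, with a median of 0.24.

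Of the 8 genes of entry into the ER, 1 rose and 2 fell in DF1102, both below the 27.8% and 29.5% of all genes tested. The signal recognition particle, which brings ribosomes to the ER membrane, had 1 of 4 genes that rose, its receptor alpha subunit MYCTH_2297489, at 27.4 and 33.9 RPKM (JG207) against 41.6 and 36.0 (DF1102) and a log2 fold change of 0.34 ± 0.11 (SE, edgeR adjusted p = 0.028). That call was lost with library size alone, at an edgeR adjusted p of 0.059, and without JG207 replicate 1 or DF1102 replicate 1, at 0.13 and 0.17. The most abundant gene of this role was the particle subunit MYCTH_2311498, at 136 and 156 RPKM (JG207), 176 and 178 (DF1102), 171 and 168 (DF1406) and 154 and 151 (DF1501). Its log2 fold change of 0.27 in DF1102 did not pass the threshold, but passed it with RLE factors, at an edgeR adjusted p of 0.043. The 4 subunits of signal peptidase, which cuts off the signal peptide, all had log2 fold changes below 0. MYCTH_50532 stood at 63.5 and 86.0 RPKM (JG207) against 46.2 and 55.6 (DF1102), with a log2 fold change of -0.55 ± 0.21 (SE, edgeR adjusted p = 0.045). MYCTH_2301391 was called at -0.34, and MYCTH_2296854 and MYCTH_2310737 at -0.24 and -0.21 were not. Neither call was firm. MYCTH_50532 gave an edgeR adjusted p of 0.24 without JG207 replicate 2, and MYCTH_2301391 gave 0.32.

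The Sec61 channel and its relatives were not reached by the rule, since the word translocon was in 0 of the texts. They belong to a list of 124 other ER genes, of which 123 were tested, 27 rose and 37 fell, with a median of -0.13. The shares of 22% and 30.1% are near or below the 27.8% and 29.5% of all genes tested. The genes of this list named here were chosen after their values were seen. MYCTH_87328, a subunit of the Sec61p complex that forms the channel, stood at 217 and 261 RPKM (JG207) against 124 and 156 (DF1102), with a log2 fold change of -0.77 ± 0.17 (SE, edgeR adjusted p = 0.0046). MYCTH_2073127, a component of the Ssh1p channel complex, stood at 154 and 183 RPKM (JG207) against 81.1 and 91.5 (DF1102) and fell by 0.96 on the log2 scale. MYCTH_2316209, an ER membrane protein of translocation and membrane insertion, stood at 188 and 165 RPKM (JG207) against 111 and 106 (DF1102) and fell by 0.71. For all 3 genes both DF1102 libraries lay below both JG207 libraries. Picked after their values were seen, these 3 genes do not show how the channel stood as a whole. Other genes of this list rose, 5 of them by at least 2-fold. MYCTH_54815, a reductase of lipid particles, ER and mitochondrial outer membrane that acts on acyl dihydroxyacetone phosphate, stood at 334 and 221 RPKM (JG207), 8271 and 9594 (DF1102), 7227 and 7066 (DF1406) and 4245 and 1728 (DF1501), with 4.99 ± 0.48 (SE, edgeR adjusted p = 5.1e-05) in DF1102. The ER quality-control mannosidase MYCTH_2310830, at 7.60 and 5.63 RPKM (JG207) against 19.6 and 16.3 (DF1102), rose by 1.43. A subunit of the complex that adds GPI anchors, MYCTH_2298342, at 46.5 and 54.9 RPKM (JG207) against 119 and 113 (DF1102), rose by 1.19, the diacylglycerol kinase MYCTH_2311577, at 59.2 and 63.3 RPKM (JG207) against 139 and 128 (DF1102), by 1.12, and the scarce GPI-anchored mannosidase MYCTH_2298086, at 0.242 and 0.212 RPKM (JG207) against 0.50 and 0.529 (DF1102), by 1.17. The last of these calls was lost with DESeq2, at an adjusted p of 0.078, and without JG207 replicate 2 or DF1102 replicate 2, at edgeR adjusted p of 0.089 and 0.063. The 124 genes together took 1.48% and 1.58% of counts (JG207), 2.04% and 2.14% (DF1102), 2.00% and 1.85% (DF1406) and 1.69% and 1.60% (DF1501), so the DF1102 share was above JG207 although more genes fell than rose. MYCTH_54815 alone held 5717 and 3896 counts in JG207 and 143782 and 165099 in DF1102, of list totals of 308919 and 338563 and 432200 and 447102.

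Oligosaccharyltransferase, which joins the N-glycan to the protein, had 4 of 5 subunits that fell, with a median log2 fold change of -0.53. Of all genes tested, 29.5% fell. The delta subunit MYCTH_2294104 stood at 81.9 and 106 RPKM (JG207), 48.9 and 51.7 (DF1102), 57.9 and 46.2 (DF1406) and 48.8 and 76.0 (DF1501). Its log2 fold change in DF1102 was -0.90 ± 0.18 (SE, edgeR adjusted p = 0.0026), and the DF1102 and JG207 libraries did not overlap. The alpha subunit MYCTH_2295750, at 104 and 113 RPKM (JG207) against 69.9 and 79.9 (DF1102), changed by -0.53 ± 0.13 (SE, edgeR adjusted p = 0.0078). MYCTH_2088816 and the gamma subunit MYCTH_2307463 fell by 0.65 and 0.43. The beta subunit MYCTH_2297768 stood at 168 and 174 RPKM (JG207) against 195 and 194 (DF1102) and a log2 fold change of 0.19 that did not pass the test. Without DF1102 replicate 1, 2 of the 5 subunits fell.

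All 3 protein O-mannosyltransferases, which start O-glycans on serine and threonine in the ER, fell in DF1102, and all 3 kept the call whichever library of either strain was left out. MYCTH_2296424 stood at 66.6 and 71.2 RPKM (JG207), 35.4 and 36.1 (DF1102), 46.3 and 43.6 (DF1406) and 56.7 and 64.0 (DF1501), with a log2 fold change in DF1102 of -0.95 ± 0.10 (SE, edgeR adjusted p = 7.6e-05). MYCTH_2312538 stood at 92.5 and 104 RPKM (JG207), 57.2 and 61.0 (DF1102), 60.0 and 52.2 (DF1406) and 63.1 and 80.0 (DF1501), with -0.73 ± 0.13 (SE, edgeR adjusted p = 0.001). MYCTH_2310881 changed by -0.52 ± 0.11 (SE, edgeR adjusted p = 0.0026). These enzymes and some of the ER mannosyltransferases draw on dolichol phosphate mannose. Its synthase, MYCTH_2299450 of the other ER genes, stood at 122 and 125 RPKM (JG207) against 63.6 and 67.4 (DF1102) and changed by -0.92 ± 0.16 (SE, edgeR adjusted p = 0.001).

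The 2 largest falls among all secretion genes were in mannosyltransferases that build mannan chains. MYCTH_97899, an alpha-1,6-mannosyltransferase of cell wall mannan, stood at 32.9 and 34.7 RPKM (JG207), 8.25 and 8.47 (DF1102), 18.1 and 15.9 (DF1406) and 10.6 and 19.0 (DF1501). Every library of a deletion strain lay below both JG207 libraries, and those of DF1102 were lowest. The log2 fold change in DF1102 was -2.02 ± 0.22 (SE, edgeR adjusted p = 9.0e-05). MYCTH_2312753 and MYCTH_2296368 are 2 subunits of the Golgi complex that lengthens the mannan backbone. MYCTH_2312753 stood at 16.0 and 20.5 RPKM (JG207), 5.50 and 5.68 (DF1102), 9.43 and 8.66 (DF1406) and 9.70 and 12.8 (DF1501), with a log2 fold change in DF1102 of -1.70 ± 0.16 (SE, edgeR adjusted p = 4.0e-05). MYCTH_2296368 stood at 16.3 and 20.7 RPKM (JG207), 6.94 and 8.21 (DF1102), 10.4 and 8.90 (DF1406) and 10.1 and 14.1 (DF1501), with -1.29 ± 0.17 (SE, edgeR adjusted p = 2.3e-04). Another gene with a text of this complex, MYCTH_2106248, gave 0.07 and did not pass the test. MYCTH_60177, which matches the cis-Golgi enzyme that starts the outer chain, was the most abundant glycosylation gene, at 296 and 320.0 RPKM (JG207), 314 and 282 (DF1102), 219 and 235 (DF1406) and 224 and 253 (DF1501), and its log2 fold change in DF1102 was -0.05 with an edgeR adjusted p of 0.75. Of the 10 genes with a text on mannan chains, 7 fell and 1 rose, against 29.5% and 27.8% of all genes tested. With DESeq2, 6 fell. Fewer were called lower when any library of either strain was left out, with median log2 fold changes of the group between -0.40 and -0.38.

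The gene of this group that rose was MYCTH_2308692, an alpha-1,2-mannosyltransferase that places the first branch mannose on the backbone. It stood at 26.7 and 24.7 RPKM (JG207), 57.2 and 53.4 (DF1102), 27.0 and 21.8 (DF1406) and 14.0 and 20.9 (DF1501). The DF1102 libraries lay above all others, and the log2 fold change was 1.10 ± 0.16 (SE, edgeR adjusted p = 4.6e-04). The 4 other glycosylation genes that rose have ER or GPI texts. MYCTH_2304539, an alpha-1,2-mannosyltransferase of GPI anchor synthesis (GPI anchors tie proteins to the membrane by a glycolipid), stood at 38.1 and 37.4 RPKM (JG207), 81.0 and 86.8 (DF1102), 70.4 and 64.8 (DF1406) and 56.0 and 51.0 (DF1501), and changed by 1.15 ± 0.12 (SE, edgeR adjusted p = 7.3e-05) in DF1102. MYCTH_2298352, a mannosyltransferase of asparagine-linked glycosylation, stood at 44.0 and 53.7 RPKM (JG207), 88.8 and 79.4 (DF1102), 95.2 and 79.2 (DF1406) and 64.2 and 54.8 (DF1501), and changed by 0.78 ± 0.14 (SE, edgeR adjusted p = 0.0013). MYCTH_2312819, which adds the terminal alpha-1,2-mannose residues to the lipid-linked N-glycan precursor, rose by 0.70, and the ER alpha-1,6-mannosyltransferase MYCTH_2295836 by 0.31, a call lost when any library of either strain was left out. On the same precursor pathway the alpha-1,3-mannosyltransferase MYCTH_2310419 fell by 0.83, and 2 GPI mannosyltransferases, MYCTH_2306681 (whose text names human PIG-V) and MYCTH_2309021, fell by 0.90 and 0.86. Precursor and GPI enzymes thus included genes that rose and genes that fell.

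**Figure D2:**
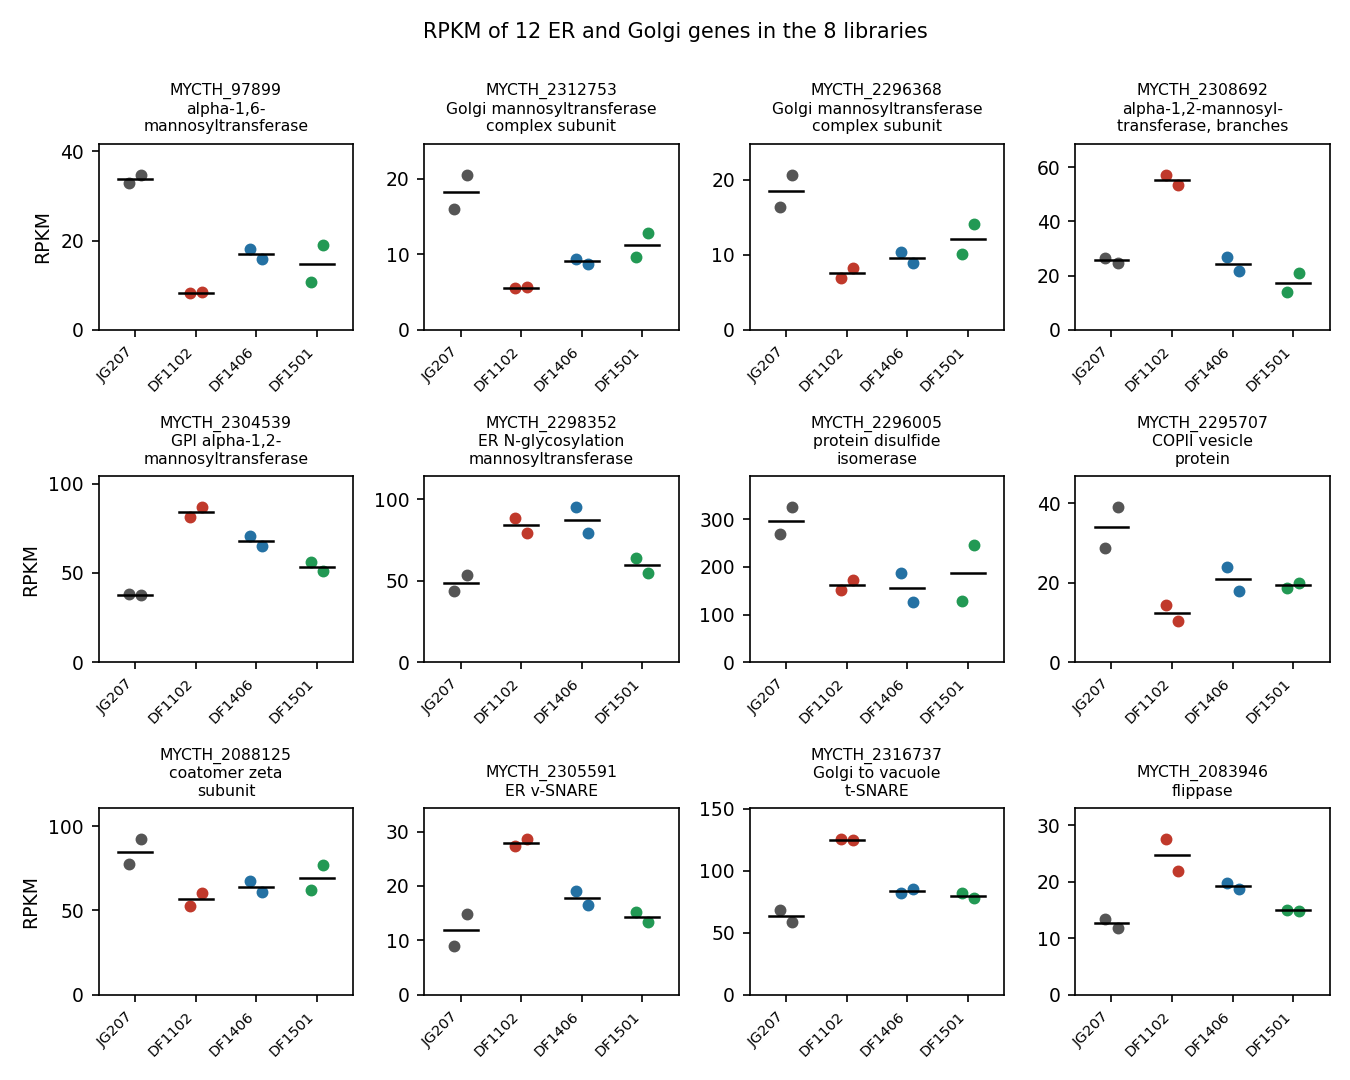
RPKM of 12 ER and Golgi genes in the 8 libraries, 1 point per library and a bar at the mean of the 2 libraries of a strain, each panel with its own linear axis from 0. The mannosyltransferase MYCTH_97899 is lowest in DF1102 (8.25 and 8.47) and MYCTH_2308692 is highest there (57.2 and 53.4).

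Of the 4 genes of disulfide bond formation, 2 fell in DF1102, against 29.5% of all genes tested. The protein disulfide isomerase MYCTH_2296005 was the most abundant, at 269 and 325 RPKM (JG207), 150.5 and 173 (DF1102), 186 and 126 (DF1406) and 128 and 245 (DF1501). Both DF1102 libraries lay below both JG207 libraries, with a log2 fold change of -0.87 ± 0.26 (SE, edgeR adjusted p = 0.019). The call was lost without JG207 replicate 2 or without either DF1102 library, at edgeR adjusted p between 0.059 and 0.12. The DF1501 libraries stood far apart. The other isomerase, MYCTH_2300901, changed by -0.35 ± 0.11 (SE, edgeR adjusted p = 0.023), a call that was lost when any library of either strain was left out. MYCTH_2295433 and MYCTH_2310028 gave 0.14 and -0.25, and did not pass. Among the other ER genes, the sulfhydryl oxidase MYCTH_2308968 stood at 54.7 and 46.4 RPKM (JG207), 19.1 and 19.2 (DF1102), 29.7 and 30.9 (DF1406) and 36.2 and 40.3 (DF1501), and changed by -1.41 ± 0.13 (SE, edgeR adjusted p = 4.1e-05). The thiol oxidase MYCTH_2313331, which supplies oxidising equivalents to the isomerase, stood at 91.6 and 54.9 RPKM (JG207) against 68.1 and 55.9 (DF1102), so its JG207 libraries spanned both DF1102 libraries. The ER chaperone ATPase MYCTH_2315513, at 218 and 281 RPKM (JG207) against 214 and 232 (DF1102), gave -0.16 and did not pass, nor did MYCTH_2310995, which matches the transcription factor of the unfolded protein response, at 452 and 404 RPKM (JG207) against 351 and 297 (DF1102) and -0.41. The quality-control lectin MYCTH_2313145 fell by 0.88.

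Within the COPII coat, genes of transport from the ER to the Golgi had log2 fold changes on both sides of 0 in DF1102. MYCTH_2079774, the small GTPase that starts COPII assembly, stood at 307 and 326 RPKM (JG207), 183 and 187 (DF1102), 218 and 216 (DF1406) and 233 and 263 (DF1501). All libraries of the deletion strains lay below JG207, and the log2 fold change in DF1102 was -0.78 ± 0.11 (SE, edgeR adjusted p = 3.0e-04). Of the 6 genes with a COPII coat text, 3 fell and 2 rose, against 29.5% and 27.8% of all genes tested. With library size alone, 2 fell and 1 rose. The cargo-selecting subunit MYCTH_2309166 gave 0.10 and did not pass, and a further one, MYCTH_2308649, rose by 0.30. In the outer coat, MYCTH_2311970 fell by 0.42 and MYCTH_2306744, a text shared with the nuclear pore and the SEA complex, by 0.34. These 3 calls, of MYCTH_2308649, MYCTH_2311970 and MYCTH_2306744, were each lost when single libraries were left out, and without DF1102 replicate 1 only MYCTH_2079774 kept its call among the 6. The largest fall of this role was in MYCTH_2295707, a protein of COPII vesicles, at 28.8 and 39.0 RPKM (JG207), 14.3 and 10.4 (DF1102), 23.9 and 17.9 (DF1406) and 18.8 and 19.9 (DF1501), with -1.46 ± 0.19 (SE, edgeR adjusted p = 2.0e-04) in DF1102. The most abundant gene was MYCTH_84992, the Rab GTPase of the ER-to-Golgi step, at 329 and 369 RPKM (JG207) against 454 and 482 (DF1102). It changed by 0.42 ± 0.14 (SE, edgeR adjusted p = 0.026), a call lost when any library of either strain was left out, at edgeR adjusted p between 0.056 and 0.13.

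Coatomer, the coat of the retrieval vesicles, was lower in DF1102 in 5 of 6 subunits, with a median log2 fold change of -0.45. Of all genes tested, 29.5% fell. The zeta subunit MYCTH_2088125 stood at 77.6 and 92.2 RPKM (JG207), 52.8 and 60.3 (DF1102), 67.2 and 60.8 (DF1406) and 62.2 and 76.7 (DF1501), and changed by -0.59 ± 0.12 (SE, edgeR adjusted p = 0.0031). The beta subunit MYCTH_2298462 stood at 71.3 and 80.7 RPKM (JG207), 51.6 and 46.0 (DF1102), 55.8 and 57.4 (DF1406) and 60.6 and 72.6 (DF1501), with -0.64 ± 0.11 (SE, edgeR adjusted p = 0.0012). The delta, beta' and gamma subunits MYCTH_2304758, MYCTH_2310300 and MYCTH_2298167 fell by 0.43, 0.47 and 0.30. The alpha subunit MYCTH_108501 gave -0.16 and did not pass. The number of subunits that fell was 2 without JG207 replicate 2 or DF1102 replicate 1, and 3 without JG207 replicate 1 or DF1102 replicate 2. The receptor that coatomer vesicles use to return HDEL-tagged ER proteins, MYCTH_2312768 of the other ER genes, stood at 43.6 and 56.6 RPKM (JG207) against 23.2 and 27.7 (DF1102), and fell by 0.98. In the cis-Golgi, the matrix protein MYCTH_2312687 fell by 0.85, while MYCTH_2313651, a protein of cis-Golgi traffic, rose by 0.78. The beta and beta' subunits are grouped under ER-to-Golgi transport by their texts. The role coatomer holds the other 4 subunits and the 7 F-box and SEA complex genes. Of those 7 genes 4 rose and 1 fell, against 27.8% and 29.5% of all genes tested.

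Among the 24 genes with SNARE texts, 10 rose and 2 fell in DF1102. SNARE proteins pair on the vesicle (v-SNARE) and on the target membrane (t-SNARE). The largest rise among all secretion genes was in the ER v-SNARE MYCTH_2305591, at 8.95 and 14.8 RPKM (JG207), 27.4 and 28.6 (DF1102), 19.0 and 16.4 (DF1406) and 15.2 and 13.3 (DF1501). Both DF1102 libraries were above all others, with a log2 fold change of 1.24 ± 0.20 (SE, edgeR adjusted p = 6.7e-04). The t-SNARE of Golgi-to-vacuole traffic, MYCTH_2316737, stood at 68.0 and 58.5 RPKM (JG207), 125 and 124 (DF1102), 81.7 and 85.0 (DF1406) and 81.5 and 78.1 (DF1501), and changed by 0.97 ± 0.13 (SE, edgeR adjusted p = 2.4e-04). The Golgi v-SNARE MYCTH_2051705 stood at 111 and 86.4 RPKM (JG207), 190.5 and 153 (DF1102), 132 and 122 (DF1406) and 95.7 and 99.5 (DF1501), with 0.79 ± 0.16 (SE, edgeR adjusted p = 0.0024). The vacuolar SNARE MYCTH_2305337 rose by 0.85. SNAREs of fusion with the plasma membrane were not among those that rose. The most abundant SNARE gene, the secretory vesicle v-SNARE MYCTH_64173, stood at 277 and 308 RPKM (JG207), 304 and 295 (DF1102), 260.2 and 258 (DF1406) and 274 and 271 (DF1501), with a log2 fold change of 0.03 and an edgeR adjusted p of 0.83. Of the plasma membrane t-SNAREs, MYCTH_2302649 fell by 0.54 (edgeR adjusted p = 0.053 without DF1102 replicate 1) and MYCTH_108565 gave -0.05 and did not pass.

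The exocyst, which holds secretory vesicles at the site of growth, had 2 of 8 subunits that rose, a share of 25% that is below the 27.8% of all genes tested. MYCTH_2079758 was both the most abundant and the most changed, at 36.4 and 46.4 RPKM (JG207), 59.7 and 59.9 (DF1102), 41.6 and 42.9 (DF1406) and 39.5 and 46.1 (DF1501), with 0.53 ± 0.11 (SE, edgeR adjusted p = 0.0032) in DF1102. In TRAPP, the tether of the Golgi, 2 of 6 rose (33.3%). MYCTH_2301662 stood at 32.3 and 37.4 RPKM (JG207), 54.3 and 64.6 (DF1102), 47.3 and 43.6 (DF1406) and 37.6 and 39.2 (DF1501), and changed by 0.77 ± 0.12 (SE, edgeR adjusted p = 5.7e-04), and the most abundant subunit MYCTH_2139227 gave 0.06 and did not pass. Among the genes matched by Golgi alone, the 3 flippases, which move phospholipids across the membrane of secretory vesicles, all rose. MYCTH_2083946 stood at 13.4 and 11.8 RPKM (JG207), 27.5 and 21.9 (DF1102), 19.8 and 18.6 (DF1406) and 15.0 and 14.9 (DF1501), with 0.96 ± 0.14 (SE, edgeR adjusted p = 3.6e-04). MYCTH_2304292 stood at 40.5 and 46.6 RPKM (JG207), 72.2 and 55.8 (DF1102), 43.3 and 36.6 (DF1406) and 41.4 and 44.2 (DF1501), and rose by 0.55. The third, MYCTH_2301640, rose by 0.28, a call lost when any library was left out and with DESeq2, at an adjusted p of 0.090. In all, 1 flippase was called without DF1102 replicate 1 and 2 without any other library of the strains compared. A list of 60 genes of post-Golgi traffic that the rule did not take had 59 tested, of which 27 rose and 6 fell, or 45.8% and 10.2% against 27.8% and 29.5% of all genes, with a median of 0.20.

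The gene with the highest mean RPKM of the 199 was MYCTH_2310462, a cytoplasmic thioredoxin of the oxidative stress system whose text also names ER-Golgi transport. It stood at 1461 and 1457 RPKM (JG207), 510.4 and 545 (DF1102), 829 and 829 (DF1406) and 1095 and 1128 (DF1501), and changed by -1.47 ± 0.14 (SE, edgeR adjusted p = 4.4e-05) in DF1102. The 5 genes with thioredoxin texts took 0.152% and 0.150% of all counts in JG207 and 0.0710% and 0.0752% in DF1102.

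The next question is how the secretion genes stood in the strains given a Weimberg pathway. DF1406 against JG207 had 20 genes that rose and 39 that fell of 198, against 17.2% and 19.7% of all genes tested, and the median log2 fold change was -0.11. DF1501 against JG207 had 2 that rose and 19 that fell, against 11.7% and 9.56%, with a median of -0.07. In both comparisons the share that fell was near that over all genes, and the share that rose was below it. Of the genes that fell, 17 of 39 in DF1406 and 11 of 19 in DF1501 were glycosylation genes. In DF1406 4 further glycosylation genes rose (median of the 30 genes -0.42), and in DF1501 1 rose (median -0.28). SNARE texts had 5 that rose and 4 that fell in DF1406 and 0 called in DF1501 by edgeR or DESeq2 (3 higher and 1 lower at an unadjusted p of at most 0.05). The coatomer subunits had 1 of 6 that fell in DF1406 and 0 in DF1501 by either tool (2 at an unadjusted p of at most 0.05). All comparisons with JG207 share its 2 libraries. Leaving out a library leaves 1 in a strain, and the counts changed with the library left out. In DF1406, 11 genes rose and 22 fell without JG207 replicate 1, 11 and 13 without JG207 replicate 2, 5 and 18 without DF1406 replicate 1, and 9 and 7 without DF1406 replicate 2. In DF1501, 3 rose and 6 fell without JG207 replicate 1, 1 and 2 without JG207 replicate 2. With DF1501 replicate 1 left out 1 rose and 1 fell, and with DF1501 replicate 2 left out 9 rose and 27 fell. The glycosylation genes that fell numbered between 5 and 10 in DF1406, and 3, 1, 1 and 11 in DF1501, when the same libraries were left out in the same order.

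Some single genes were called in all 3 deletion strains. The log2 fold change of MYCTH_97899 was -2.02 in DF1102, -0.93 ± 0.21 (SE, edgeR adjusted p = 0.0081) in DF1406 and -1.21 ± 0.21 (SE, edgeR adjusted p = 0.0053) in DF1501. Its levels in DF1501 were 10.6 and 19.0 RPKM. For MYCTH_2312753 the values were -1.70, -0.95 and -0.71, all 3 past the test, and for MYCTH_2295707 -1.46, -0.64 and -0.81, again all past the test. The GPI enzyme MYCTH_2304539 rose in all 3, by 1.15, 0.90 and 0.50. In DF1501, MYCTH_2312753, MYCTH_2295707 and MYCTH_2304539 lost the call without JG207 replicate 2, at edgeR adjusted p of 0.084, 0.097 and 0.11, and with DF1501 replicate 1 left out, at 0.067, 0.058 and 0.089. In DF1406, MYCTH_97899 lost it without DF1406 replicate 2, at 0.068. A Golgi N-acetylglucosaminyltransferase, MYCTH_2305375, stood at 10.5 and 14.6 RPKM (JG207), 7.69 and 8.07 (DF1102), 7.52 and 5.07 (DF1406) and 5.02 and 10.9 (DF1501), and changed in DF1406 by -0.93 ± 0.30 (SE, edgeR adjusted p = 0.039). That call was lost when any library of JG207 or DF1406 was left out, at edgeR adjusted p between 0.060 and 0.23. In DF1501 the highest called gene was MYCTH_2307037, an endosomal sorting subunit, at 42.7 and 44.1 RPKM (JG207), 70.7 and 61.5 (DF1102), 54.4 and 52.1 (DF1406) and 62.0 and 69.9 (DF1501), with 0.59 ± 0.10 (SE, edgeR adjusted p = 0.0047).

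Set against DF1102, the strain with the deletion alone, the pathway strains had genes on both sides. All such comparisons share the DF1102 libraries, which also enter the comparison with JG207, so the values are given side by side and their likeness is no separate result. In DF1406, 7 genes rose and 21 fell against DF1102, compared with 11.9% and 9.90% of all genes tested, and with a fold of at least 1.5 as well, 4 rose and 5 fell, against 7.81% and 4.32%. In DF1501, 17 rose and 48 fell, against 18.2% and 16.3%, and with the fold minimum 9 rose and 11 fell, against 13.1% and 8.24%. At the adjusted p alone, the share that fell was near that over all genes in DF1406 and above it in DF1501. The share that rose was below that over all genes in both strains. In DF1501, 8 of the glycosylation genes were higher than in DF1102 and 4 lower, while 8 SNARE genes were lower and 1 higher, and 24 genes matched by Golgi alone were lower and 5 higher. The DF1406 counts against DF1102 were smaller whichever library was left out, which leaves 1 library in a strain. The median log2 fold change was -0.10 with all libraries. It was -0.08 without DF1102 replicate 1 and -0.09 without DF1102 replicate 2. It was -0.10 without DF1406 replicate 1 and -0.04 without DF1406 replicate 2. The count at an unadjusted p of at most 0.05 was 15 higher and 44 lower with all libraries, and DESeq2 called 8 and 20. In DF1501, 6 rose and 19 fell without DF1102 replicate 1, 6 and 22 without DF1102 replicate 2, and 9 rose and 24 fell without DF1501 replicate 2.

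The branching mannosyltransferase MYCTH_2308692 had the largest fall against DF1102 in both pathway strains, at -1.12 ± 0.16 (SE, edgeR adjusted p = 0.0041) in DF1406 and -1.67 ± 0.17 (SE, edgeR adjusted p = 3.8e-04) in DF1501. The backbone subunit MYCTH_2312753 rose by 0.76 and 1.00, and MYCTH_97899 by 1.08 and 0.81. In every library both stayed below JG207. In DF1406 all 3 of these calls were lost without DF1102 replicate 1, at edgeR adjusted p of 0.052, 0.095 and 0.095, and in DF1501 that of MYCTH_97899 was lost without DF1102 replicate 1, DF1102 replicate 2 or DF1501 replicate 2, at 0.12, 0.093 and 0.14. MYCTH_2312668, a membrane protein of transport between ER and Golgi, stood at 24.3 and 24.4 RPKM (JG207), 32.7 and 29.3 (DF1102), 20.8 and 18.1 (DF1406) and 15.0 and 17.9 (DF1501). Against DF1102 it changed by -0.61 ± 0.12 (SE, edgeR adjusted p = 0.012) in DF1406 and -0.92 ± 0.13 (SE, edgeR adjusted p = 0.0013) in DF1501. The Golgi GDP-mannose transporter MYCTH_2304127, which feeds the Golgi mannosyltransferases, stood at 20.4 and 29.1 RPKM (JG207), 33.6 and 33.2 (DF1102), 21.9 and 19.1 (DF1406) and 25.3 and 24.6 (DF1501), and fell by 0.64 and 0.42. The flippase MYCTH_2304292 fell by 0.62 and 0.58, and the endosome-to-Golgi oxidoreductase MYCTH_2298102 rose by 0.50 and 0.49. Each of the DF1406 calls of this paragraph was lost when at least 1 library was left out. In DF1501 the ER v-SNARE MYCTH_2305591 fell by 0.97, the Golgi v-SNARE MYCTH_2051705 by 0.82 and the flippase MYCTH_2083946 by 0.73. Rises against DF1102 in DF1501 included the GPI mannosyltransferase MYCTH_2306681, at 12.4 and 11.9 RPKM in DF1102 and 26.4 and 22.4 in DF1501, with 1.00 ± 0.16 (SE, edgeR adjusted p = 0.0026), and the antiporter of Golgi vesicles MYCTH_2306795, at 26.0 and 22.8 and 63.2 and 35.2 RPKM, with a log2 fold change of 1.03. The latter call was lost without DF1501 replicate 1 or without either DF1102 library, at edgeR adjusted p between 0.067 and 0.11. The F-box gene MYCTH_2305406 fell by 0.64 and 0.67, and thioredoxin MYCTH_2310462 rose by 0.71 and 1.07.

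**Figure D3:**
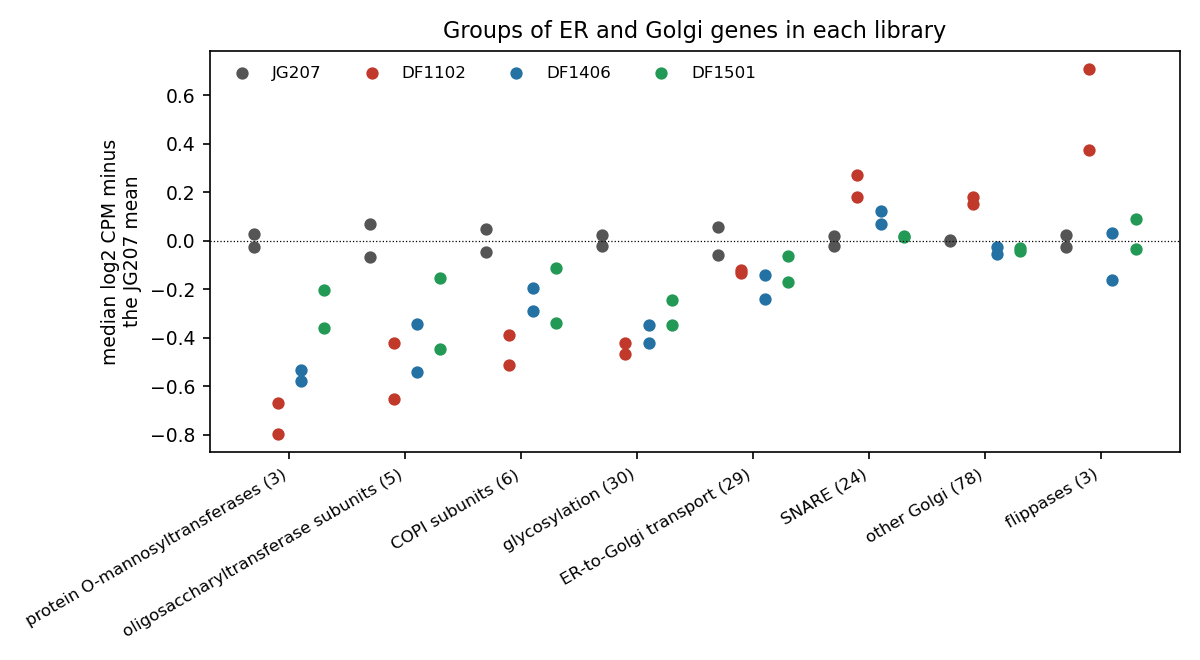
Median over the genes of a group of log2 CPM minus the JG207 mean, 1 point per library, with the number of tested genes in brackets. The protein O-mannosyltransferases and oligosaccharyltransferase subunits lie below 0 in all 6 libraries of the deletion strains, the former lowest in DF1102, while the SNARE genes and the 3 flippases lie highest in DF1102.

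The 2 pathway designs were compared directly by DF1501 against DF1406. Of 198 genes, 1 was higher and 2 were lower, against 2.53% and 2.29% of all genes tested. The sorting nexin MYCTH_2293999, which retrieves late-Golgi SNAREs, stood at 50.7 and 46.2 RPKM (JG207), 36.3 and 34.5 (DF1102), 34.1 and 32.8 (DF1406) and 48.4 and 50.0 (DF1501), with 0.49 ± 0.11 (SE, edgeR adjusted p = 0.04). The sphingoid base kinase MYCTH_2299645 stood at 15.0 and 15.0 RPKM (JG207), 26.3 and 25.4 (DF1102), 26.1 and 24.5 (DF1406) and 16.3 and 17.2 (DF1501), with -0.66 ± 0.10 (SE, edgeR adjusted p = 0.013). The mannosyltransferase MYCTH_2298352 was the other lower gene, at -0.61 ± 0.14 (SE, edgeR adjusted p = 0.043). For the nexin and the kinase, DF1501 lay near JG207 and DF1406 near DF1102, and for the mannosyltransferase DF1501 lay between JG207 and the others. When only the 4 libraries compared were fitted the calls were lost, at edgeR adjusted p of 0.080, 0.067 and 0.12 in the order given, and they were also lost without DF1406 replicate 1, at 0.18, 0.10 and 0.21, and without DF1406 replicate 2, at 0.20, 0.078 and 0.12. Without DF1501 replicate 1, 5 genes were lower.

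The secretion genes were then set beside hydrolase genes, whose secretion was not checked here. The study lists 45 glycoside hydrolase (GH) and 8 auxiliary activity (AA) genes as upregulated, a list drawn from these same libraries, so its direction is no independent evidence. Of the 45 GH genes, 45 rose in DF1102, 44 in DF1406 and 39 in DF1501 against JG207, with median log2 fold changes of 2.04, 2.11 and 1.42. The 8 AA genes had medians of 2.18, 2.20 and 1.43. Together the 53 genes took 0.416% and 0.396% of all counts (JG207), 2.54% and 2.49% (DF1102), 2.86% and 2.63% (DF1406) and 1.85% and 1.01% (DF1501). The 199 secretion genes took 2.13% and 2.36% (JG207), 2.17% and 2.15% (DF1102), 2.01% and 1.91% (DF1406) and 1.96% and 2.17% (DF1501). The hydrolase share of every deletion strain library was above both JG207 libraries, while the secretion share lay between 1.91% and 2.36% in all 8 libraries, with both DF1406 libraries below both JG207 libraries and both DF1102 libraries between those of JG207. For each 100 counts in secretion genes there were 19.5 and 16.8 hydrolase counts (JG207), 117 and 116 (DF1102), 142 and 137 (DF1406) and 94.1 and 46.6 (DF1501). With 2 libraries a strain, an exact permutation test on these shares cannot give a two-sided p below 0.333, and none was run.

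The hydrolase share rested in part on a single gene. The GH11 xylanase MYCTH_89603, an enzyme that cuts the xylan backbone, stood at 318 and 266 RPKM (JG207), 9970.4 and 8914 (DF1102), 11266 and 10759.6 (DF1406) and 6519.5 and 1093 (DF1501). Its 2 DF1501 libraries lay further apart than those of any other strain. The GH10 xylanase MYCTH_116553 stood at 271 and 240.5 RPKM (JG207), 1665 and 1826 (DF1102), 1845 and 1696 (DF1406) and 1466 and 990.4 (DF1501), with a log2 fold change in DF1102 of 2.76 ± 0.24 (SE, edgeR adjusted p = 3.5e-05). Both are members of the study's list, chosen here after their values were seen. Without MYCTH_89603, the ratio was 18.5 and 16.0 (JG207), 85.8 and 87.3 (DF1102), 104 and 98.8 (DF1406) and 71.3 and 43.2 (DF1501). All deletion strain libraries lay above JG207, which is no independent evidence, since the list was drawn from these libraries. Beside these, the glycosylation genes took 0.342% and 0.383% of counts (JG207), 0.320% and 0.314% (DF1102), 0.303% and 0.284% (DF1406) and 0.287% and 0.329% (DF1501). The 5 oligosaccharyltransferase subunits took 0.0868% and 0.0986%, 0.0744% and 0.0783%, 0.0813% and 0.0725% and 0.0720% and 0.0886% in the same order. Within DF1501 and within JG207, the library with the lower hydrolase share, replicate 2, had the higher share of secretion, glycosylation and oligosaccharyltransferase counts. Within DF1406, replicate 1 was higher in each of these shares, the hydrolase share included. Within DF1102, replicate 1 was higher in the hydrolase, secretion and glycosylation shares and lower in the oligosaccharyltransferase share. The part of library composition in these shares was not tested. No correlation across libraries is given, because the 8 libraries fall into 4 strains. No secreted protein was measured in these files.

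**Figure D4:**
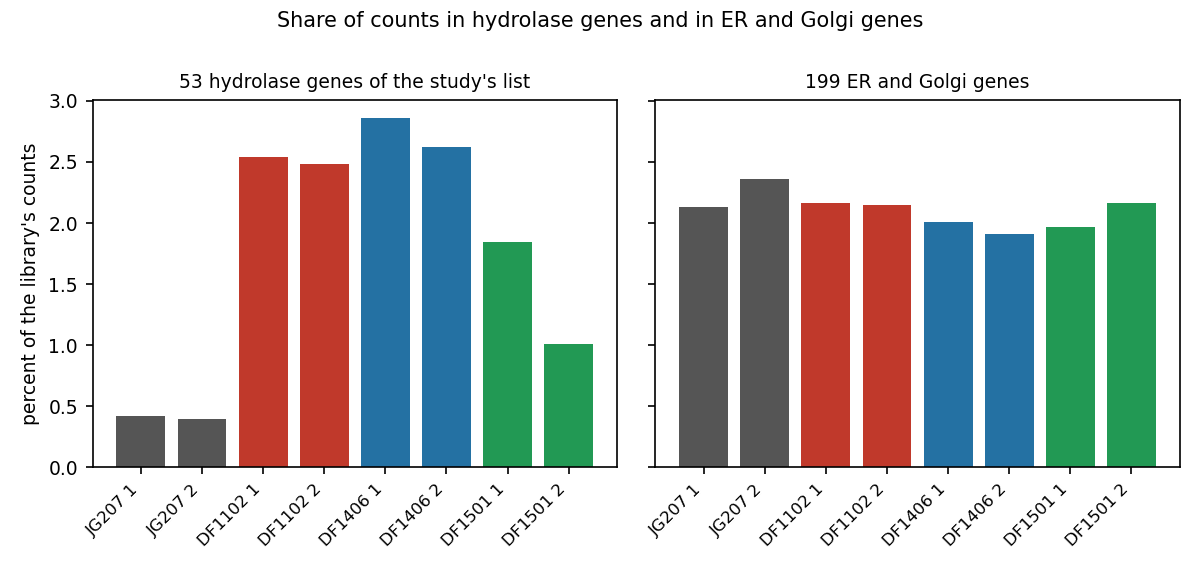
Percent of each library's counts that fall in the 53 hydrolase genes of the study's list (left) and in the 199 ER and Golgi genes (right), 1 bar per library, both axes from 0. The hydrolase bars rise from 0.416% and 0.396% in JG207 to between 1.01% and 2.86% in the deletion strains, while the ER and Golgi bars stay between 1.91% and 2.36%.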

How the data were processed

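Counts per gene and RPKM were deposited by the authors, who cleaned DNBSEQ reads with SOAPnuke, used TopHat2 (2.0.12) for alignment to version 2.0 of the species' genome, and took gene counts with HTSeq (0.13.5). The strand setting is not given in the sources used here. In 1 library column, 3 rows without a gene ID were left out, and 0 columns went unused. Genes were tested with edgeR 4.0.16 (R 4.3.3), by the quasi-likelihood test with TMM factors (0.954 to 1.05), filterByExpr (minimum count 10) and 1 fit of all 8 libraries with 4 residual degrees of freedom. P-values were adjusted by Benjamini and Hochberg over 8335 genes, and calls were made at 0.05. The study's fold minimum is 2 against JG207 and 1.5 otherwise. Fold changes are on the log2 scale. DESeq2 1.42.0 and limma 3.58.1 served as alternatives.

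Members and lists were chosen with earlier results of these data known. The naming rule took, by role, the gene with the largest change in DF1102 against JG207 and that with the highest mean RPKM, and, per comparison, the 5 highest and 5 lowest called genes with a mean CPM of at least 10 and libraries that do not overlap (3 and 3 for DF1406 and DF1501 against JG207 and for DF1501 against DF1406). Counts without the 12 genes matched for another reason were added after the descriptions were read. Genes in near-identical copies or overlapping a neighbour could share reads, which was not examined. Sequences were not used here.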

Additional observations from a re-analysis of the deposited data

Results flagged for a closer look

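In 3 genes the levels of the 2 Weimberg pathway strains differed by a test of the difference itself, DF1501 minus DF1406, with edgeR's adjusted p of at most 0.05. The mannosyltransferase of asparagine-linked glycosylation MYCTH_2298352 gave a log2 difference of -0.61 and the sphingoid base kinase MYCTH_2299645 gave -0.66, so both were lower in DF1501, in each of its libraries against each of DF1406. The sorting nexin MYCTH_2293999 gave 0.49 and was higher in both DF1501 libraries. The 3 calls were lost when either DF1406 library was left out and when only the 4 libraries compared were fitted.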

How the results depend on the processing

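Alternatives were no filter on low counts, RLE factors, scaling by library size alone, DESeq2, limma on log2 RPKM, a fit of only the 4 libraries compared, and leaving out each library. Leaving out one library at a time gave, for genes that rose and genes that fell, 39 to 48 and 26 to 41 in DF1102 against JG207, 5 to 11 and 7 to 22 in DF1406 against JG207, 1 to 9 and 1 to 27 in DF1501 against JG207, 0 to 1 and 1 to 5 in DF1406 against DF1102, 6 to 15 and 19 to 41 in DF1501 against DF1102, and 0 to 1 and 0 to 5 in DF1501 against DF1406. Without the genes matched by Golgi alone, 29 rose in DF1102 against JG207, 12 in DF1406 against JG207 and 1 in DF1501 against JG207, 8 fell in DF1406 against DF1102 and 24 in DF1501 against DF1102, and 1 was lower in DF1501 than in DF1406, since fewer genes were counted. In DF1102 against JG207, 59 rose and 54 fell in the main fit, 50 and 42 with library size alone, and 54 and 49 with DESeq2. There, limma on log2(RPKM + 1) gave 57 that rose and 37 that fell without a filter, and 51 and 42 after it. With library size alone, 11 rose in DF1406 against JG207, 6 fell in DF1501 against JG207, and 2 were higher and 1 lower in DF1501 than in DF1406. With only the 4 libraries compared, 1 rose and 2 fell in DF1501 against JG207, 12 rose and 33 fell in DF1406 against DF1102, and 0 were called in either direction in DF1501 against DF1406. With limma on log2(RPKM + 1) without a filter, 11 rose in DF1406 against JG207, 3 fell in DF1501 against JG207, 2 rose in DF1406 against DF1102, 11 rose in DF1501 against DF1102 and 0 were called in DF1501 against DF1406. With limma after the filter, at a pseudocount of 1 or 0.1, 11 rose in DF1406 against JG207, 5 fell in DF1501 against JG207, and 2 were higher and 1 lower in DF1501 than in DF1406. DESeq2 called 3 higher in DF1501 than in DF1406, and a minimum of 10 counts in every library, chosen after seeing the data, gave 4 that rose in DF1501 against JG207. The cause of these shifts was not tested. Of 1623 values of 116 named genes and comparisons under the alternatives, 1618 kept their direction and 184 lost a call, 115 of them on leaving out a library. The 5 that changed sign were uncalled genes in DF1102 against JG207: over the libraries left out one at a time, MYCTH_108565 gave -0.16 to 0.094 (highest without JG207 replicate 2), MYCTH_2139227 -0.12 to 0.22 and MYCTH_60177 -0.11 to 0.0080 (-0.12 and 0.0080 without DF1102 replicate 2), MYCTH_2313331 -0.63 to 0.24 (highest without JG207 replicate 1, lowest and called, at an edgeR adjusted p of 0.013, without JG207 replicate 2), and MYCTH_2106248 -0.056 to 0.18 (lowest without DF1102 replicate 1). The libraries of the strains share only replicate numbers. Deviations of same-numbered libraries correlated, across genes, between -0.223 and 0.169 over the 6 pairs of strains. With a replicate block the counts were 57 and 50 in DF1102 against JG207, 19 and 38 in DF1406 against JG207, 2 and 14 in DF1501 against JG207, 17 and 42 in DF1501 against DF1102, and 7 and 21 in DF1406 against DF1102.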
